A study of Homo sapiens with 18 samples.

Results

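Counts at 5 rows of an RNA-seq gene table are described here, each of which lies on the DNA strand opposite a gene linked to the interferon response. A row is 1 annotated gene of the deposited table, and the 5 rows are AP001610.5 (opposite MX1), CTD-2047H16.4 (opposite RNF213), PARP9 (opposite DTX3L), C5orf56 (opposite IRF1) and C7orf49 (whose locus holds TMEM140 on the other strand). They were named from a table of 57773 rows with earlier results of these data known, and were chosen by their high counts in 1 group, the repressive line with tamoxifen. For these rows and the genes opposite them, values that involve that line are therefore given as a description with no test, and tests are kept to the comparisons that leave it out. Tests in that line are given only for other rows, from lists and neighbours. All 5 reached the minimum of 10 counts in 3 libraries that was set for testing, but 2 of them, PARP9 and C5orf56, did so only with the help of the repressive line with tamoxifen.

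The cells were RWPE1, an established line of benign human prostate epithelium, in which 1 of 3 MACC constructs had been expressed ectopically and kept under blasticidin. All 3 constructs share a DNA-binding domain of the androgen receptor and the tamoxifen-responsive ERT2 domain, so the controls carry these parts as well. The neutral construct (3X) adds only an epitope tag, the repressive construct adds KRAB, a domain that recruits silencing complexes, and the activating construct adds VP64, a strong activation domain. Cells of each line were kept with ethanol vehicle or with tamoxifen over 48 hours, with 3 biological replicates in each of the 6 groups. For tamoxifen one label field states 1.5 uM and another 1.25 uM. Whether a line stems from 1 clone is not given in the sources used here.

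Interferons are secreted signals of antiviral defence that act through surface receptors, JAK kinases and STAT transcription factors. Activated STAT complexes bind short promoter motifs, the interferon-stimulated response element (ISRE) or the gamma-activated site (GAS), and switch on interferon-stimulated genes, many of which encode antiviral enzymes and parts of the antigen presentation machinery. Epithelial cells, those of the prostate included, carry these receptors and can mount this response themselves.

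The named genes play different roles in it. MX1 encodes a dynamin-like GTPase that blocks viruses, RNF213 a very large ubiquitin ligase, and DTX3L a ubiquitin ligase that works in a complex with PARP9, itself an ADP-ribosyltransferase family member. IRF1 is a transcription factor that amplifies the response, and TMEM140 encodes a transmembrane protein. Among the opposite rows, PARP9 and C7orf49 (also named CYREN, a regulator of DNA end joining) are protein-coding genes in their own right. AP001610.5, CTD-2047H16.4 (also RNF213-AS1) and C5orf56 (also IRF1-AS1) are annotated as long noncoding RNAs.

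The promoter motifs of these loci are printed to show which of the promoter windows searched held the letters of an interferon-type element. The window ran from 250 bases before to 50 after the annotated RefSeq start, and both strands were searched for the ISRE letters (GAAA, any 2 bases, GAAA) and the GAS letters (TTC, any 3 bases, GAA). Sequences were matched to the GRCh37 genome and are printed on the strand of the gene, with the matched letters in capitals.
MX1, chr21:42792486-42792515: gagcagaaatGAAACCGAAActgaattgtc
DTX3L, chr3:122283169-122283198: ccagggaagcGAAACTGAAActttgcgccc
TMEM140, chr7:134832746-134832805: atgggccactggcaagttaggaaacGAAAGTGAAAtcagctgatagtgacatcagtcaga
IRF1 (minus strand), chr5:131826556-131826614: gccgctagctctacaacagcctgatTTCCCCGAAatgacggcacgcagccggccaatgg
C5orf56, chr5:131746575-131746604: cggagggTTTCGCTTTCGCTTTCctgccga
C5orf56, chr5:131746605-131746634: tgtcgttgagGAAAATGAAAgcggtcgtgg

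The ISRE letters were thus found beside MX1, DTX3L and TMEM140, that is, at 3 of the 5 named genes, and the GAS letters beside IRF1. Counted from the start, with its first base as 1, the ISRE match lay at 12 to 21 in MX1, at -6 to 4 in DTX3L and at -53 to -44 in TMEM140, and the GAS match of IRF1 at -124 to -116. Of the 4 opposite rows with a RefSeq promoter, C5orf56 (RefSeq name CARINH) alone held matches, 3 of the ISRE letters, 2 of which overlap on the reverse strand. AP001610.5 was not matched to a RefSeq promoter and was not searched. No match to either motif was found in the windows of RNF213, CTD-2047H16.4, PARP9 or C7orf49. The stretch printed for DTX3L does lie within the annotated span of PARP9, beyond the window searched there. So that match is not particular to DTX3L. Of 35116 RefSeq promoters of the same length, 3.57% held the ISRE letters and 7.66% the GAS letters. Of 53 promoters of listed interferon-stimulated genes, 33 (62.3%) held the former and 12 (22.6%) the latter. The full androgen response element (AGAACA, any 3 bases, TGTTCT) was in none of the 9 windows searched, and its first 6 bases alone, present in 14.8% of all promoters, were found in that of TMEM140. A match is a description of letters and not a shown binding site.

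The pairs overlap to very different degrees in the annotation used here. It is not the one used in counting, and some gene names differ between them, so the exons that were counted may differ as well. AP001610.5 (ENSG00000228318, chromosome 21, 42812983 to 42817635, minus strand, GRCh37) lies wholly inside the MX1 gene (ENSG00000157601, 42791947 to 42841998), and 436 of its 1116 exonic bases (39.1%) are also exonic in MX1. C5orf56 (ENSG00000197536, chromosome 5, 131746328 to 131824394, plus strand) shares 2805 of 9728 exonic bases (28.8%) with IRF1 (ENSG00000125347). CTD-2047H16.4 (ENSG00000263069, chromosome 17, 78325628 to 78388968, minus strand) shares 1043 of 6584 (15.8%) with the 3′ part of RNF213 (ENSG00000173821). C7orf49 (ENSG00000122783, chromosome 7, 134777115 to 134855547, minus strand) shares 526 of 5321 (9.89%) with TMEM140 (ENSG00000146859) and a further 711 with the plus-strand row RP11-134L10.1. PARP9 (ENSG00000138496, chromosome 3, 122246771 to 122283424, minus strand) and DTX3L (ENSG00000163840) run away from each other and share only 139 of the 8938 exonic bases of PARP9 (1.56%), at their 5′ ends.

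**Figure D1:**
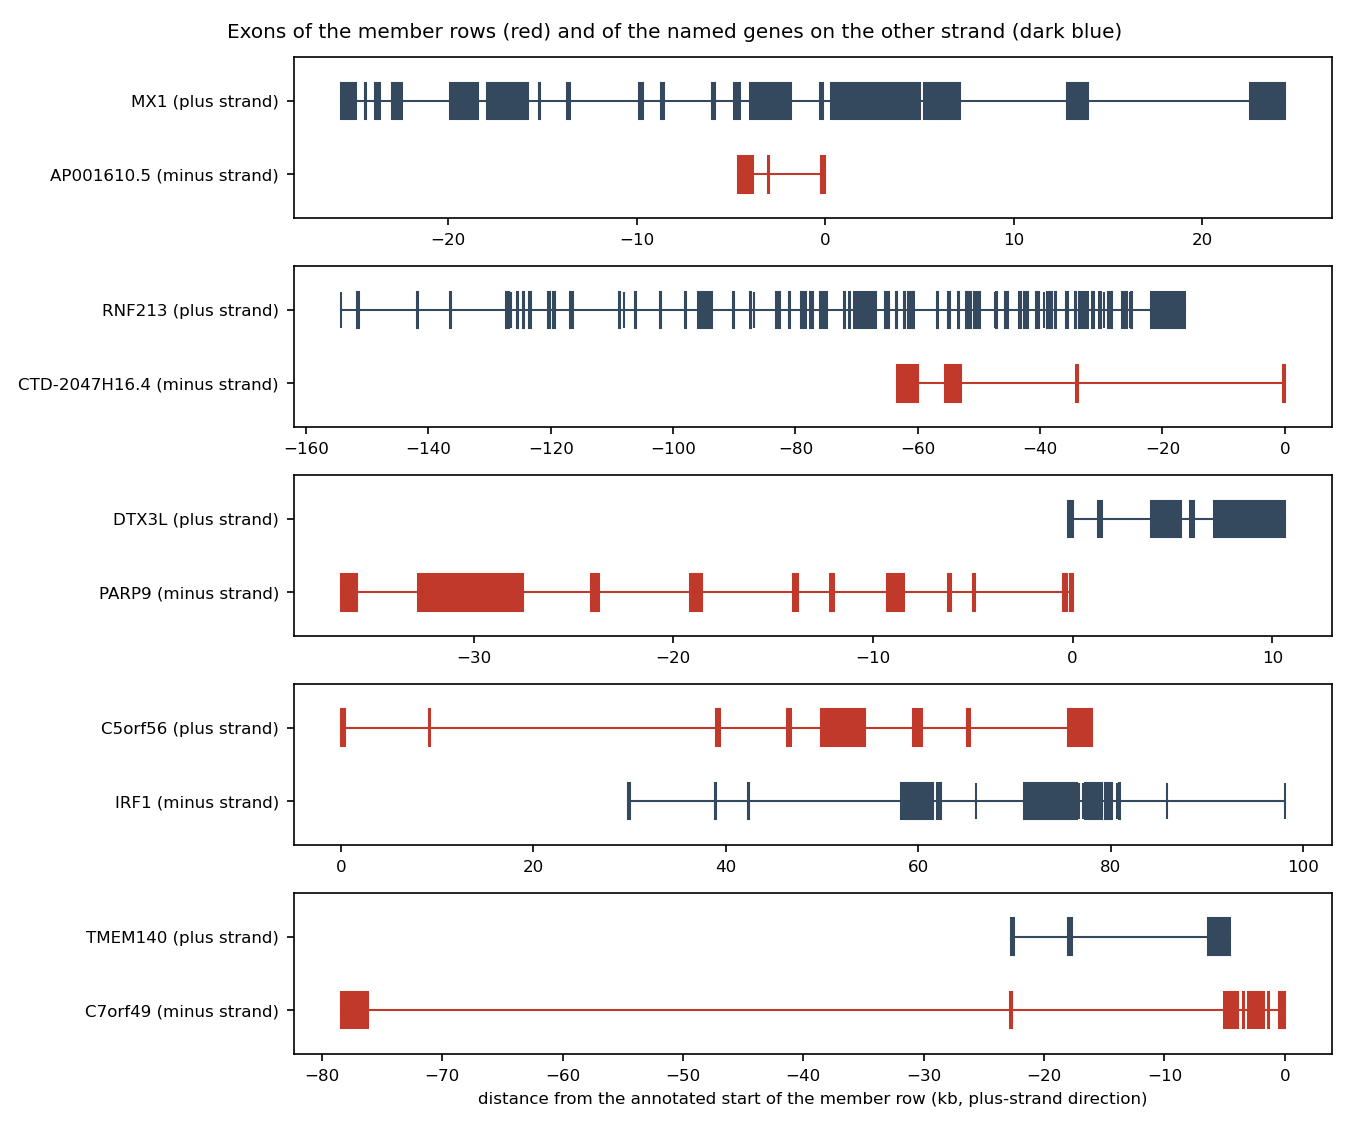
Exons (boxes) and introns (lines) of the 5 opposite rows in red and of the named genes in dark blue, with distance from the annotated start of the red row in kb on the x axis of each panel. AP001610.5 sits wholly inside MX1, C7orf49 spans TMEM140, and PARP9 and DTX3L meet only at their starts.

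The libraries were made with a kit that keeps the strand, but the strand setting used in counting is not given in the sources used here. Counts in this table lay largely at rows with an opposite-strand partner, which held 89% of the counts at rows matched to the annotation. Any shared exonic base was enough for this, and the share of rows with such a partner was not counted, so the 89% has no comparison. MT-ND6, the only one of the 13 mitochondrial protein genes coded on the light strand, took 71.7% to 79.6% of their counts in each library. So whether the counts of a member come from RNA of that row or from RNA of the gene opposite cannot be told apart with this table, and each row is named here as the table names it. Total counts per library were 675609 to 792282. At this depth 3 counts, used as the floor for a row at 0, equal 3.79 to 4.44 CPM (counts scaled to the library total), and this floor covers counting error only. The epithelial keratins KRT5, KRT14 and KRT8 had 17026, 11393 and 13079 counts over the 18 libraries. The other epithelial genes listed were far lower, with 437 for KRT18, 365 for KRT19, 233 for TP63, 149 for CDH1 and 45 for EPCAM. The leukocyte genes PTPRC and CD3E and the fibroblast gene COL3A1 had 0, COL1A1 had 75 and the macrophage gene CD68 348.

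The row opposite MX1 stood far above all other groups in the repressive line with tamoxifen. AP001610.5 had 181, 182 and 158 counts there, against 28, 45 and 21 in the same line with vehicle. In the neutral line it had 8, 12 and 13 counts with vehicle and 25, 13 and 13 with tamoxifen. In the activating line it had 12, 9 and 16 with vehicle and 5, 4 and 4 with tamoxifen. Every library of the repressive line with tamoxifen lay above every other library, and the 3 libraries of the activating line with tamoxifen were the lowest of all. In normalized counts (counts divided by the library's size factor) the repressive line went from 28.8 ± 10.7 to 184 ± 24.0 (mean ± SD, n = 3), a log2 fold change of 2.68 (SE 0.31). Its vehicle level was itself higher than that of the neutral line, 10.9 ± 2.30, by 1.40 in log2 (SE 0.39). Fewer cells with the RNA and less RNA per cell cannot be told apart in such bulk libraries.

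MX1 itself had fewer counts, and it reached the minimum for testing only through the induced repressive line. Its counts were 49, 30 and 32 in the repressive line with tamoxifen, against 14, 4 and 3 with vehicle, and between 0 and 10 in the 12 libraries of the other lines. All tamoxifen libraries of that line were above all others here too. The log2 fold change was 2.57 (SE 0.72), close to that of AP001610.5, and without replicate 1 of the repressive vehicle group, which held 14 of the 21 vehicle counts, it was 3.61. Over the 18 libraries AP001610.5 held 749 of the 918 counts of the pair (81.6%), and its share was 82.0% ± 13.5 with vehicle and 82.6% ± 3.61 with tamoxifen in the repressive line (n = 3), so both rows of this pair differed to a like degree. Per kb of exon the rows lay further apart, with 671 counts for AP001610.5 and 9.40 counts for MX1 over the 18 libraries. The exon lengths join all exons of an annotation other than the one used in counting, so this gap depends on that annotation.

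CTD-2047H16.4, opposite RNF213, was high in the same group, with little spread among its replicates. It had 190, 164 and 179 counts in the repressive line with tamoxifen, and 62, 72 and 56 with vehicle. The neutral line had 84, 79 and 59 with vehicle and 34, 63 and 47 with tamoxifen, and the activating line 45, 61 and 57 with vehicle and 61, 65 and 39 with tamoxifen. The 3 induced repressive libraries stood above the other 15, whose ranges overlapped among the groups. Normalized counts in the repressive line went from 58.3 ± 6.63 to 187 ± 2.98 (n = 3), a log2 fold change of 1.68 (SE 0.23). RNF213 had 28, 16 and 25 counts after tamoxifen and 15, 33 and 11 before it in this line. Those libraries overlap, and the log2 fold change was 0.42 (SE 0.52, 95% interval -0.61 to 1.44), or 0.98 without replicate 2 of the vehicle group. The share of CTD-2047H16.4 in the counts of the pair went from 77.6% ± 7.93 to 88.7% ± 2.13, with no overlap of the libraries (68.6% to 83.6% against 87.2% to 91.1%), so here the opposite row differed and a difference in the named gene was not detectable at this depth.

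C7orf49 showed the largest log2 fold change of the 5. It had 109, 81 and 121 counts in the repressive line with tamoxifen, and 9, 14 and 14 with vehicle. In the neutral line it had 8, 4 and 3 with vehicle and 11, 10 and 10 with tamoxifen, and in the activating line 6, 11 and 7 with vehicle and 4, 12 and 5 with tamoxifen. The induced repressive libraries were far above the other 15, whose highest normalized count was 12.9. Their mean of 109 ± 16.6 compared with 11.3 ± 2.41 with vehicle (n = 3), a log2 fold change of 3.26 (SE 0.40).

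TMEM140, which lies within the C7orf49 locus, had group means of 151 to 216 normalized counts per kb of exon and went the other way. It had 322, 319 and 369 counts in the repressive line with tamoxifen and 485, 466 and 549 with vehicle. Every tamoxifen library was below every vehicle library, a pattern seen in 11.6% of all rows tested. The log2 fold change was -0.37 (SE 0.12), from 461 ± 42.9 to 356 ± 39.0 normalized counts. The share of the pair's counts at C7orf49 was between 1.02% and 2.41% in the means of 5 groups and 23.4% ± 2.75 (20.2% to 25.3%, n = 3) in the repressive line with tamoxifen. The sum of both rows was 472 ± 43.1 with vehicle and 465 ± 47.6 with tamoxifen, a log2 fold change of -0.02 (SE 0.11), so the counts of the locus as a whole stayed level while their division between the rows differed.

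**Figure D2:**
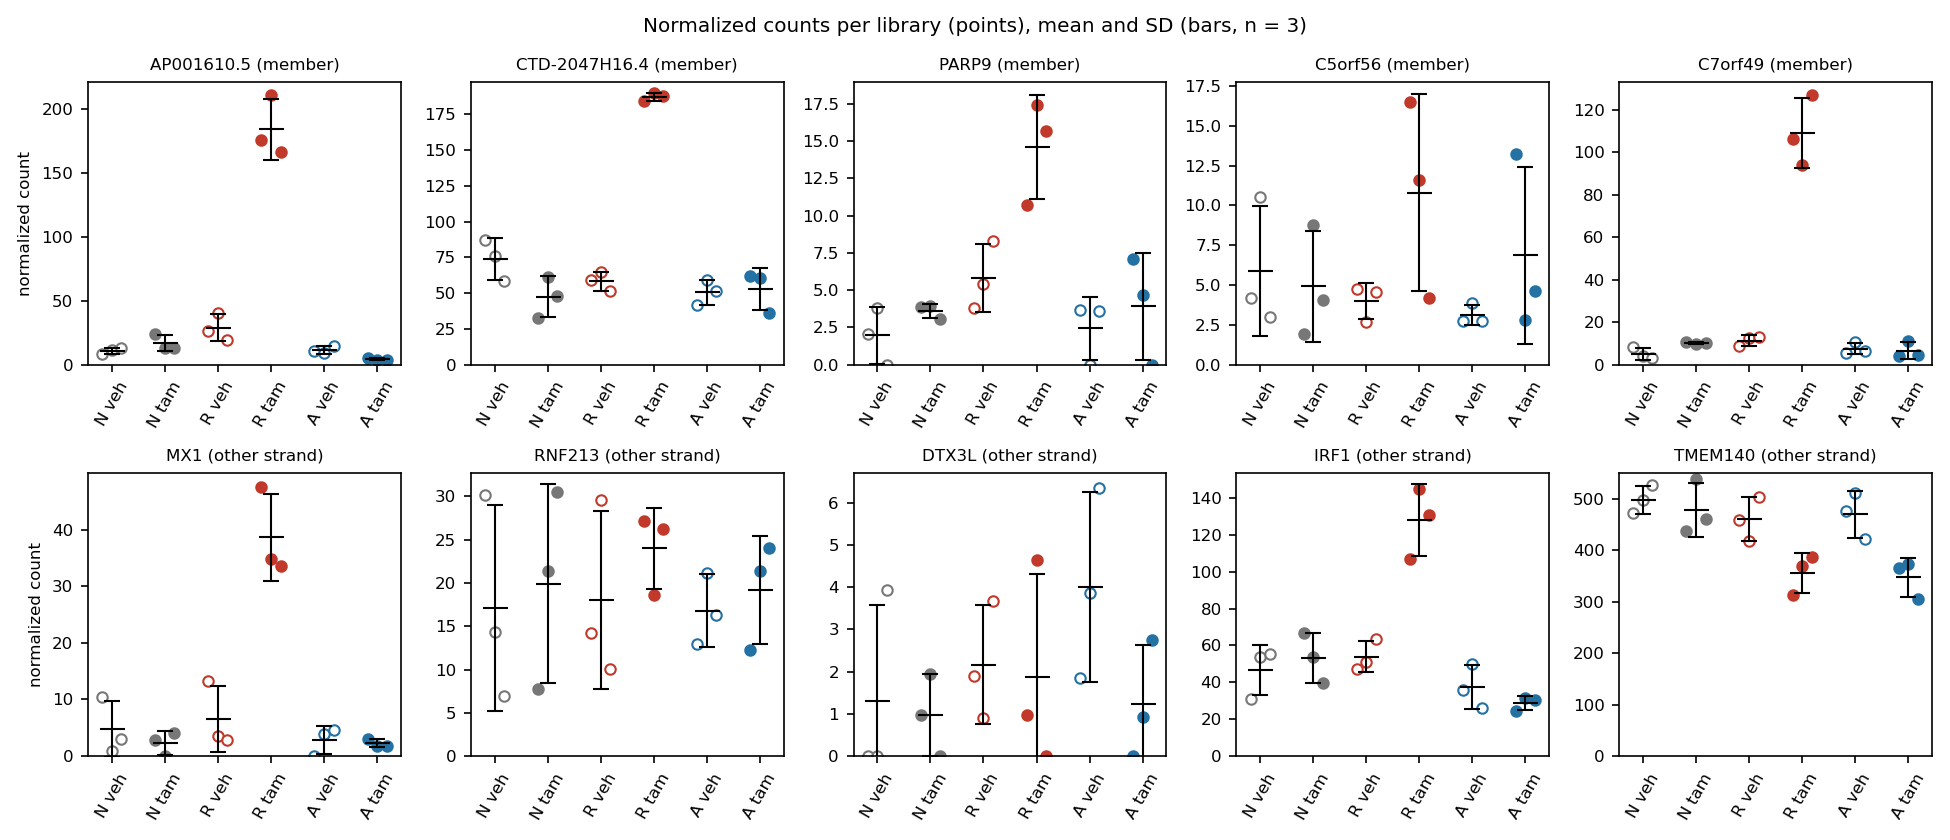
Normalized counts (y axis) of the 5 opposite rows (top) and of the named genes (bottom) in the neutral (N), repressive (R) and activating (A) lines with vehicle (veh, open points) or tamoxifen (tam, filled points). Each point is 1 library and the bars are mean and SD (n = 3), drawn only down to 0. AP001610.5, CTD-2047H16.4 and C7orf49 stand apart in the repressive line with tamoxifen, at 166 to 211, 184 to 190 and 94.0 to 127.

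PARP9 and C5orf56 were rare, and their values rest on few reads. PARP9 had 11, 15 and 15 counts in the repressive line with tamoxifen and 4, 6 and 9 with vehicle, and between 0 and 7 in the libraries of the other lines. The induced libraries did not overlap the others, but the log2 fold change was 1.32 with an SE of 0.81 (95% interval -0.26 to 2.91). DTX3L had 36 counts over all 18 libraries, at most 7 in any of them, and did not reach the minimum for testing. It had 1, 4 and 0 counts in the repressive line with tamoxifen and 2, 1 and 4 with vehicle, so a difference at DTX3L was not detectable at this depth.

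C5orf56 had 17, 10 and 4 counts in the repressive line with tamoxifen and 5, 3 and 5 with vehicle, which overlap. Its log2 fold change was 1.43 (SE 0.82, 95% interval -0.17 to 3.03), and 1 library each of the neutral and the activating line reached 11 and 13 counts. In this pair it was the named gene that carried the counts. IRF1 had 110, 125 and 125 in the repressive line with tamoxifen against 50, 57 and 69 with vehicle, and normalized counts went from 54.0 ± 8.33 to 128 ± 19.4 (n = 3), a log2 fold change of 1.24 (SE 0.27). C5orf56 held 108 of the 1160 counts of its pair (9.31%), the reverse of the division at MX1 and RNF213.

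**Figure D3:**
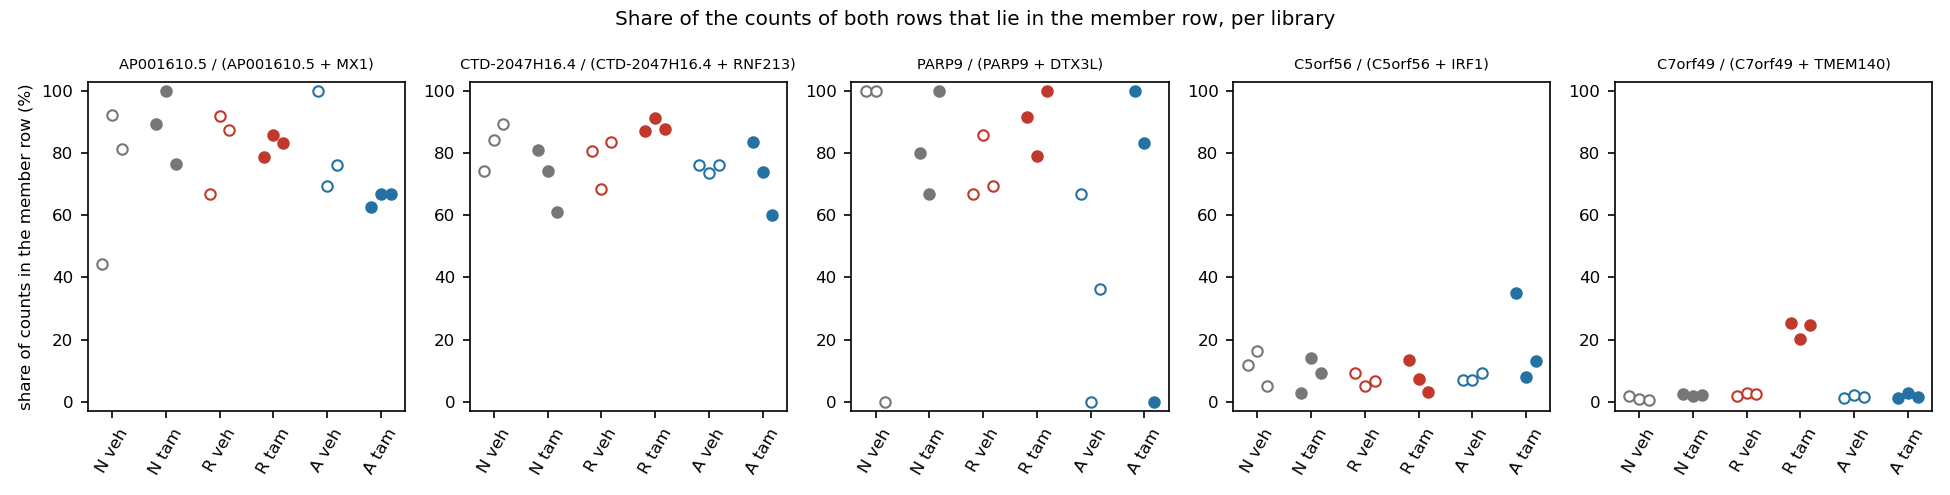
Share of the counts of each pair that lay in the opposite row, in percent (y axis), for each library of the 6 groups (open points vehicle, filled points tamoxifen). The share of C7orf49 is between 20.2% and 25.3% in the repressive line with tamoxifen and at most 2.92% elsewhere, while that of AP001610.5 is 78.7% to 85.8% in that group, within the range of the other groups.

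Across all rows tested, 12.6% had every repressive tamoxifen library above every vehicle library, and 4.76% stood above all 15 other libraries. Of the 5 members, 4 were above all 15 others, the pattern for which they were named, so nothing is read from that count. The median log2 fold change of the 5 in the repressive line was 1.68, against -0.02 over all 5816 rows tested. Since the members were named for high counts in that line with tamoxifen, nothing is read from this difference either. In the order of exon-length-scaled levels in the induced repressive line, AP001610.5 (165 normalized counts per kb) came before CTD-2047H16.4 (28.5) and C7orf49 (20.5), with PARP9 (1.63) and C5orf56 (1.11) far below. The ranges of the last 2 overlapped. The exon lengths are not those used in counting, so this order depends on the annotation chosen.

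The activating line was tested to see whether induction of the opposite effector moved these rows. None of the 5 had a DESeq2 adjusted p under 0.05 there (0 of 5, with 1 at an unadjusted p under 0.05, 0 with edgeR), where 2.8% of all rows tested passed, but only 2 of the 5 kept an adjusted p after DESeq2's filter on low means. AP001610.5 came nearest. All 3 of its tamoxifen libraries were below all 3 vehicle libraries, a pattern seen in 8.18% of rows, and normalized counts went from 11.4 ± 2.91 to 4.16 ± 0.788 (n = 3). Its log2 fold change was -1.47 (SE 0.53, 95% interval -2.51 to -0.42), with a DESeq2 adjusted p of 0.0553. Over the alternative settings the adjusted p was 0.0549 to 0.241.

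The other members gave no call in that line. For CTD-2047H16.4 the log2 fold change was 0.06 (95% interval -0.44 to 0.56, DESeq2 adjusted p 0.94). The difference of this row from the repressive line was not tested. C7orf49 had -0.16 (95% interval -1.21 to 0.88), PARP9 0.66 (SE 0.96) and C5orf56 1.13 (SE 0.86), and these were the members with no adjusted p. Among the named genes TMEM140 fell by 0.43 on the log2 scale (SE 0.12, DESeq2 adjusted p 0.00498), from 470 ± 45.3 to 348 ± 37.7 normalized counts, with 361, 402 and 331 counts after tamoxifen and 518, 530 and 466 before. Its adjusted p rose to 0.0752 when replicate 2 of the vehicle group was left out and to 0.105 when replicate 3 of the tamoxifen group was, which ends the call. Here the sum of TMEM140 and C7orf49 was lower as well, by 0.43 in log2 (DESeq2 adjusted p 0.00471), against -0.02 in the repressive line, and the difference between the lines was not tested. IRF1 had a log2 difference of -0.37 (SE 0.31) at a DESeq2 adjusted p of 0.548.

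The neutral line shows the response to tamoxifen where the construct carries no effector. It is only partly independent of how the rows were named, since AP001610.5 and CTD-2047H16.4 had stood out in the difference between the repressive and the neutral line. Again 0 of 5 members passed (DESeq2, 1 at an unadjusted p under 0.05, 0 with edgeR), where 0.774% of all rows did, and 1 of the 5 kept an adjusted p. That row, CTD-2047H16.4, had a log2 difference of -0.64 (SE 0.25) at a DESeq2 adjusted p of 0.14, from 73.7 ± 14.7 to 47.3 ± 14.3 normalized counts. For C7orf49 every tamoxifen library was above every vehicle library, as in 6.62% of rows, with a log2 fold change of 1.03 (SE 0.55, 95% interval -0.05 to 2.11) and no adjusted p. AP001610.5 had 0.62 (SE 0.41), and TMEM140 -0.06 (SE 0.12, DESeq2 adjusted p 0.881).

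**Figure D4:**
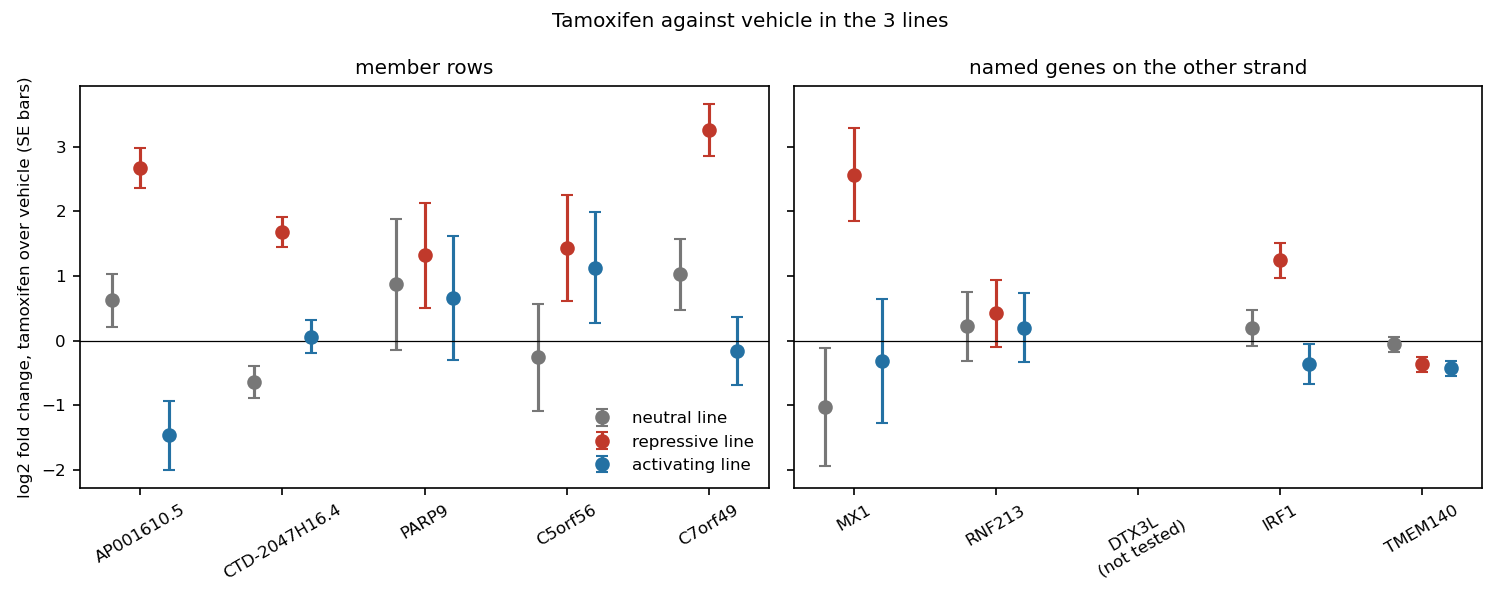
Log2 fold change of tamoxifen over vehicle (y axis, bars are SE from the fit over 18 libraries, n = 3 per group) in the neutral, repressive and activating line, for the opposite rows (left) and the named genes (right, DTX3L not tested). AP001610.5 is at 2.68 in the repressive and -1.47 in the activating line, and TMEM140 is below 0 in both.

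The tamoxifen effects of the activating and the neutral line were also compared directly, in a contrast that shares the neutral libraries with the comparison above. No member passed (0 of 5, DESeq2, 1 at an unadjusted p under 0.05, 0 with edgeR), where 0.619% of all rows did, and 1 of the 5 kept an adjusted p. AP001610.5 differed by -2.08 in log2 (SE 0.68, 95% interval -3.41 to -0.76) and kept no adjusted p in this comparison. Under the alternatives that gave one it was 0.0777 to 0.217. For CTD-2047H16.4 the difference was 0.70 (SE 0.36, DESeq2 adjusted p 0.401). Before induction the activating and the neutral line were compared with vehicle alone. None of the 5 members kept a DESeq2 adjusted p in this comparison, so none could pass (0 with edgeR, 1 at an unadjusted p of DESeq2 under 0.05), and the 0.808% of all rows that passed is no measure for them. Here AP001610.5 differed by 0.07 (SE 0.43) and CTD-2047H16.4 by -0.54 (SE 0.25).

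The likeness among the members came largely from the induced repressive line. Over the 18 libraries the Pearson correlation of log2(normalized count + 1) was 0.88 between AP001610.5 and C7orf49, 0.83 between CTD-2047H16.4 and C7orf49 and 0.78 between AP001610.5 and CTD-2047H16.4. Over the 15 libraries outside that group the same pairs gave 0.39, -0.03 and -0.03. These are descriptions over libraries that share groups and size factors. The rows most like AP001610.5 by this measure, more than 100 kb away and among 2572 candidates, were XXbac-BPG248L24.12 (0.96), opposite the antigen-presenting gene HLA-B, and AC068580.6 (0.94), opposite the protease gene CTSD. Those most like C7orf49 were RP11-552F3.9 (0.97), opposite TRIM47, and TAPSAR1 (0.96), opposite the peptide transporter gene TAP1. CTD-2047H16.4 was most like CXCR5 (0.90), whose exons lie opposite BCL9L, and RP11-498C9.3 (0.88), opposite ARHGDIA. For PARP9 they were PRSS23 (0.83) and IMP3 (0.81), and for C5orf56 DOT1L (0.73) and LSR (0.72).

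Neighbouring rows were examined to see how far the difference extended along the chromosome. Within 100 kb of the members 8 rows had enough counts, of which MX1, RNF213, IRF1 and TMEM140 are the named genes described above. None of the other 4 had an adjusted p under 0.05 in the repressive line. RP11-299J3.8, near PARP9 and abundant, went from 1094 ± 105 to 1270 ± 107 normalized counts (log2 fold change 0.22, SE 0.09, DESeq2 adjusted p 0.086). KPNA1, on the same strand as PARP9, had -0.90 (SE 0.39, adjusted p 0.124). RP11-134L10.1, the other row opposite C7orf49, had -0.42 (SE 0.24, adjusted p 0.298), and SLC22A4, near C5orf56, 0.65 (SE 0.79) with no adjusted p.

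Other interferon-stimulated genes were then taken from a list of 66, written from general knowledge of the response. Earlier results of these data were known when it was written, so it is not shown to be independent of them. In the repressive line 6 of the 21 genes with enough counts rose and 0 fell (28.6%), where 5.62% of all rows tested rose and 4.02% fell, and 19 of the 21 had a log2 fold change above 0 (median 1.17). Since 6 of the 21 reached the minimum only through the induced repressive line, these shares are descriptions. OAS3, an enzyme that makes the 2-5A signal of RNA decay, went from 6.09 ± 3.31 to 29.4 ± 2.91 normalized counts (n = 3, log2 fold change 2.27, SE 0.66, DESeq2 adjusted p 0.00724). IFITM1 and IFITM3, membrane proteins that hinder viral entry, rose by 1.92 (SE 0.49, DESeq2 adjusted p 0.0015) and 1.36 (SE 0.35, 0.00147) in log2. ISG15, a ubiquitin-like modifier, rose from 24.2 ± 5.41 to 67.1 ± 6.40 (1.47 in log2, SE 0.33, DESeq2 adjusted p 2.25e-04). HELZ2, a helicase, rose by 1.45 (SE 0.45, DESeq2 adjusted p 0.0155). TAP1, named after its values were seen, rose by 1.17 (SE 0.29, adjusted p 8.35e-04).

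Not every one of these calls held when single libraries were left out. For OAS3 the adjusted p was 0.0558 with repressive vehicle replicate 1 left out, and it was missing with any 1 of the tamoxifen libraries left out. For HELZ2 it was 0.084 with vehicle replicate 3 left out, and 0.0749 and 0.0551 with tamoxifen replicates 1 and 3 left out. In the neutral and the activating line 0 listed genes passed with DESeq2 or edgeR, with 0 and 1 at an unadjusted p under 0.05, and the medians were 0.19 and -0.07. Of the 21, DESeq2 left 1 and 2 with an adjusted p in these lines.

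Rows placed like the members, on the strand opposite a listed gene, numbered 18 once the members were set aside, and 9 had enough counts. RSAD2, CMPK2 and PSMB8 are listed genes themselves, and of these only RSAD2 had enough counts, so it is in both sets tested. In the repressive line 4 of the 9 rose and 0 fell (44.4%, median log2 fold change 1.29), beside the 5.62% of all rows that rose and 4.02% that fell. Since 1 of the 9 reached the minimum only through the induced repressive line, this share too is a description. TAPSAR1, opposite TAP1, had 508 ± 13.7 normalized counts with vehicle and 1243 ± 102 with tamoxifen (n = 3, log2 fold change 1.29, SE 0.10, DESeq2 adjusted p 1.14e-34). NANS, a sialic acid synthase gene opposite TRIM14, rose from 111 ± 15.8 to 300.1 ± 39.8 (1.43, SE 0.22, DESeq2 adjusted p 5.31e-09). AC009950.2, opposite SP110, and AC007899.3, opposite EIF2AK2 (the RNA-sensing kinase PKR), rose by 1.92 (SE 0.46, DESeq2 adjusted p 6.31e-04) and 1.99 (SE 0.58, 0.0072). Without replicate 2 of the repressive line with tamoxifen AC007899.3 had no adjusted p (log2 fold change 1.89), which ends that call. In the last 2 pairs the opposite row held more counts than the listed gene, 360 against 24 for SP110 and 223 against 112 for EIF2AK2. The same was so at TAP1, with 9519 against 778, and over all 18 pairs the opposite row had more in 7 and the listed gene in 11. CMPK2 and RSAD2 lie opposite each other, so their locus is counted on both sides. In 4 pairs the opposite row had 0 counts, and the smallest overlap was 4 bases, at IFITM2. TRIM14 itself had a log2 fold change of -0.25 (adjusted p 0.294), so the pair of NANS and TRIM14 resembled that of C7orf49 and TMEM140 in direction, while at TAP1 both rows rose.

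In the neutral line none of the 9 passed (0 with DESeq2 and with edgeR, 2 at an unadjusted p under 0.05), and 3 of them had an adjusted p. In the activating line 1 fell, the row ENSG00000262112 opposite the ubiquitin ligase gene TRIM25, from 242 ± 33.2 to 168 ± 12.1 normalized counts (-0.52 in log2, SE 0.15, DESeq2 adjusted p 0.0105), where 1.46% of all rows fell. That call was lost with edgeR (adjusted p 0.0543) and without replicate 1 or 2 of the vehicle group (0.167 and 0.0581) or replicate 1 or 3 of the tamoxifen group (0.0664 and 0.0967).

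**Figure D5:**
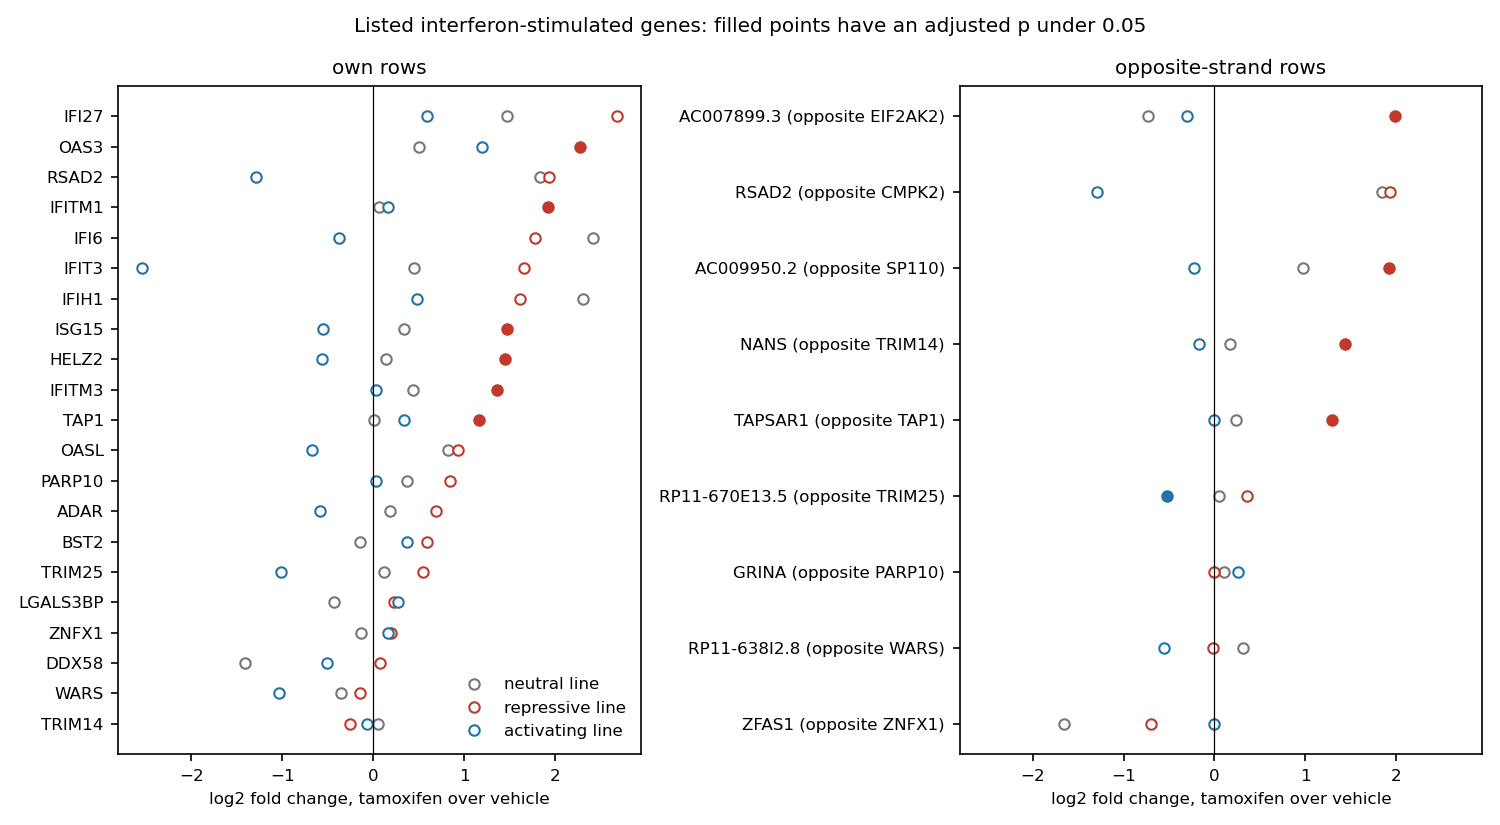
Log2 fold change of tamoxifen over vehicle (x axis) for the listed interferon-stimulated genes with enough counts (left, 21) and for rows opposite a listed gene (right, 9), in the 3 lines. Filled points have a DESeq2 adjusted p under 0.05: 6 on the left and 4 on the right in the repressive line, and 1 on the right in the activating line. RSAD2 is in both panels.

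The components of interferon signalling had few counts. All 7 interferon genes listed (IFNB1, IFNE, IFNK, IFNG, IFNL1, IFNL2 and IFNL3) and the kinase gene JAK2 had 0 counts in all 18 libraries. At this depth that allows a level of up to 4.44 CPM for the counts of such a row in the shallowest library. With the strand setting unknown, it sets no upper limit on the RNA of these genes. Of the 33 ligands, receptors, kinases, transcription factors, inhibitors, sensors and adaptors listed, 6 had enough counts for testing, and 0 passed in any line with DESeq2 or edgeR. At an unadjusted p under 0.05 there were 0 in the neutral, 1 in the repressive and 2 in the activating line. DESeq2 gave 4 of the 6 an adjusted p in the repressive line and 0 in the others, so with so few rows and the shares of all rows given above, 0 calls says little about these components. In the repressive line the transcription factor IRF7 had a log2 difference of 1.31 (SE 0.56, DESeq2 adjusted p 0.115) and the transcription factor IRF3 one of 1.23 (SE 0.69, DESeq2 adjusted p 0.294). In the neutral line IRF3 had a like value, 1.10 (SE 0.67), and IRF7 had -0.20 (SE 0.62), both with no adjusted p. Both are named after their values were seen.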

How the data were processed

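RNA-seq was measured in 18 libraries of RWPE1 cells, and all were grouped by construct and treatment from their titles. Per the study's methods the authors ran nf-core/rnaseq 3.10 under Nextflow 22.10.4 on GRCh37 and quantified with Salmon 1.9.0, and their submitted notes also name DESeq2 1.28.0. The deposited table holds expected counts (estimated reads per gene, not scaled). Of its values 1.10% were not whole, and all were rounded. The strand setting is not given in the sources used here.

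The 5816 rows that reached 10 counts in 3 or more libraries (97.6% of counts) entered the tests. A single DESeq2 1.42.0 model in R 4.3.3, in which each of 6 groups has its own mean, used median-of-ratios size factors, two-sided Wald tests, independent filtering and Benjamini-Hochberg adjustment over all rows, with calls under 0.05. It was run on simulated data, with changes placed only in the activating line with tamoxifen and in rows averaging at least 20 counts. Changes in rows as rare as PARP9 and C5orf56 were thus not covered. Replicates differed by more than sampling noise. Exon overlaps and exon lengths came from a GENCODE annotation on GRCh37 that is not the one used in counting. It matched 96.1% of rows and 90.6% of counts. Promoters came from RefSeq (GRCh38.p14, 9 of 10 loci matched), located again on GRCh37.

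The members, the lists and the alternatives were chosen with earlier results of these data known. Named are the members and their opposite genes, up to 5 called rows per list and line, called neighbours within 100 kb, and for each member the 2 rows of highest correlation among those whose mean normalized count reached 20. Alternatives were edgeR 4.0.16 quasi-likelihood tests, total-count scaling, no filter or a minimum of 20 counts, no independent filtering, a replicate block, only the lines compared, both rows of a pair summed, an overlap of at least 100 bases, and leaving out each library.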

Additional observations from a re-analysis of the deposited data

Results flagged for a closer look

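The log2 fold change of AP001610.5 had opposite signs in the lines with the opposite effectors. Its log2 fold change of tamoxifen over vehicle was 2.68 in the repressive line, where every tamoxifen library was above every vehicle library, and -1.47 in the activating line, where every tamoxifen library was below every vehicle library, as in 8.18% of all rows tested. The value in the activating line did not pass (DESeq2 adjusted p 0.0553, and 0.0549 to 0.241 under the alternatives), and the value in the repressive line is the one the row was named for. The difference between these lines was not tested, since the row was named for its value in the repressive line.

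The tamoxifen effect in the repressive line was compared with that in the neutral line, by an interaction test of DESeq2, for all 9 rows opposite a listed gene and all 21 listed genes with enough counts. RSAD2 is in both sets. Of the 9 rows 5 had an adjusted p and 2 passed (2 with edgeR, 3 at an unadjusted p under 0.05), and of the 21 genes 9 had one and 0 passed (0 with edgeR, 3 at an unadjusted p under 0.05). TAPSAR1, opposite TAP1, had a log2 fold change of 1.29 in the repressive and 0.24 in the neutral line, a difference of 1.05 (SE 0.15, adjusted p 6.37e-10). NANS, opposite TRIM14, had 1.43 and 0.17, a difference of 1.25 (SE 0.32, adjusted p 0.00328). AC007899.3, opposite EIF2AK2, differed by 2.72 (SE 0.86) with no adjusted p from DESeq2 and 0.0659 with edgeR, and AC009950.2, opposite SP110, by 0.95 (SE 0.74, DESeq2 adjusted p 0.54). In this comparison 3.85% of all rows tested passed. The edgeR test of it was added after the data were seen. The comparison shares the repressive libraries with the calls described above and is not independent of them.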

How the results depend on the processing

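Counts of a few reads limit PARP9, C5orf56, MX1 and DTX3L. The unknown strand setting limits every pair and the own rows of the listed genes as well. Of 14 main counts and medians, 346 values under the alternatives lay within 1.5 times or 1 SD of the reported value and 12 did not. Most of the 14 are counts of 0, where 0 against 0 was scored as within. For some of these no row kept a DESeq2 adjusted p, so the tally is no measure of robustness for them. With the rows of a pair summed, 1 member pair passed in the activating line in place of 0 (C7orf49 with TMEM140, log2 fold change -0.43, adjusted p 0.00471). Of the rows opposite listed genes, 0 in place of 1 passed in the activating line with edgeR, and 0 to 1 when single libraries were left out. The median log2 fold change of the members in the repressive line, 1.68, was 2.68 with at least 20 counts (fewer members tested), 2.16 with only the lines compared, 1.25 with pairs summed and 1.66 to 2.29 without single libraries. The listed genes called in that line were 4 to 6 and their opposite rows 3 to 5 without single libraries.

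For 43 single-gene results, 1027 values kept their direction and call, or lay within the replicate spread where no test was made. Another 11 lost a call, as named beside those results. Directions turned with pairs summed for C5orf56 (0.14 neutral, -0.18 activating), C7orf49 (-0.04 neutral, -0.02 repressive, -0.08 between vehicles), PARP9 (-0.34 activating) and AP001610.5 (-0.13 between vehicles) by construction, since the counts of the other row were added. Leaving out single libraries gave values that reached or crossed 0 for these rows, from lowest to highest: in the neutral line C5orf56 (-0.99 to 0.47), MX1 (-1.70 to 0.25), RNF213 (-0.23 to 0.90), IRF1 (-0.03 to 0.36) and TMEM140 (-0.16 to 0), in the activating line CTD-2047H16.4 (-0.07 to 0.28), PARP9 (-0.08 to 1.25), C7orf49 (-0.78 to 0.17) and MX1 (-0.91 to 0.23), and between vehicles AP001610.5 (-0.14 to 0.23). CTD-2047H16.4 in the repressive line was 1.55 with total-count scaling and 1.47 with its pair summed. The cause was not tested.

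Replicate numbers recur across groups, and whether same-numbered libraries were paired is not given in the sources used here. Over 1462 rows the deviations of same-numbered vehicle and tamoxifen libraries from their group means correlated at -0.30 to 0.14. These weak values cannot settle how the replicates were set up. With the replicate number as a block all 57 results kept their direction and call, the listed genes called in the repressive line were 6 and their opposite rows 4, and the median of the members was 1.69.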
